A study of Mus musculus with 24 samples.

Results

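The response of monocytic myeloid-derived suppressor cells (M-MDSCs) to lymphodepletion in mice labelled IL-6 knockout was measured in 6 of the 24 RNA sequencing libraries of the study, chosen by their column names in the deposited table. The lymphodepleted group held 3 libraries of M-MDSCs from spleens of B6.129S2-Il6tm1Kopf/J mice (genotype label IL-6KO) that carried B16 tumours, a transplantable melanoma line, and had been given cyclophosphamide and fludarabine once the tumours exceeded 25 mm2. The untreated group held 3 libraries of M-MDSCs from mice of the same strain and genotype label with the same tumours and neither drug. Spleens were taken 7 days after treatment, so every library of both groups came from a tumour-bearing animal, and the cells were sorted by flow cytometry with a stated purity above 99%. Total RNA (100 ng) was made into libraries with the NuGen Ovation Mouse kit and probe-based removal of ribosomal RNA. Used only for comparison were M-MDSCs of lymphodepleted and untreated C57BL/6 mice labelled wild type (WT), and polymorphonuclear MDSCs (PMN-MDSCs) of lymphodepleted and untreated knockout-labelled mice, with 3 libraries in each group. Age and sex are not given in the labels. The design text gives 3 mice for the other groups and no number for the lymphodepleted knockout group, and the p-values below reflect differences among these libraries only. Of the 23479 genes in the table, 11213 had 10 or more normalized counts in at least 3 of the 6 libraries and are described here.

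M-MDSCs are immature monocyte-like cells that expand in tumour bearers and restrain T cells. Cyclophosphamide alkylates and crosslinks DNA, and fludarabine is a purine analogue that blocks DNA synthesis. Together they remove lymphocytes and dividing marrow cells, after which the marrow refills the blood and spleen with newly made myeloid cells. Interleukin-6 binds its receptor chain Il6ra, which joins the shared chain gp130 (Il6st) and activates the kinase Jak1 and the transcription factor Stat3, while Socs3 shuts the signal off.

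The targeted gene was examined first. Il6 (GRCm38 chromosome 5, 30013114 to 30019975) had 38.9, 16.2 and 45.3 normalized counts in the lymphodepleted and 41.2, 38.3 and 33.3 in the untreated knockout-labelled M-MDSC libraries. In the WT-labelled M-MDSCs it had 0, 3.87 and 1.72 in lymphodepleted and 0, 0 and 0.944 in untreated libraries. Every knockout-labelled M-MDSC library therefore had more Il6 normalized counts than any WT-labelled M-MDSC library. These counts alone do not settle whether the label is right. The strain has a disrupted Il6 gene, and reads summed along a gene do not show whether its transcript is intact, so the libraries are called knockout-labelled throughout. Between the knockout-labelled groups Il6 differed by −0.28 ± 0.65 on the log2 scale (standard error; limma, adjusted p 0.823), with overlapping libraries.

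The lymphodepleted libraries held 7418606 to 10017014 reads and the untreated ones 8910592 to 9701309. Rn45s, the ribosomal RNA precursor, took 8.50 to 19.8% of reads in lymphodepleted and 6.07 to 11.1% in untreated libraries. Markers of monocytic cells (Itgam, Ly6c2, Ccr2, Csf1r, Fcgr1, Cd14 and F13a1) were present in every library, and 0 of the 7 were called by limma, the test used below (1 at an unadjusted p under 0.05, 1 by DESeq2 and 0 by edgeR). Their summed level was 21103 to 30094 normalized counts in lymphodepleted and 22250 to 31808 in untreated libraries. The haemoglobin genes Hba-a1 and Hbb-bs and the melanoma genes Tyrp1 and Dct were at 0 in all 6 libraries. Libraries correlated across genes at 0.95 to 0.976 within the untreated group and at 0.954 to 0.964 within the lymphodepleted group. No untreated library reached these values with a lymphodepleted one. Untreated library 3 correlated with the lymphodepleted libraries at 0.913 to 0.948 across genes, whereas untreated libraries 1 and 2 did so at 0.843 to 0.920. It also held more reads of dividing cells and of granulocyte precursors than the other untreated libraries, so results are given with and without it where they rest on it.

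Changes below are log2 differences of normalized count + 1, lymphodepleted minus untreated, with the standard error from limma, which shared 1 estimate of the spread among the 12 M-MDSC libraries. A gene was called when its p adjusted by the Benjamini-Hochberg method over all 11213 genes was under 0.05. Between the groups 1351 genes were called (12%), of which 709 (6.32%) were higher and 642 (5.73%) lower in lymphodepleted cells. The median change of all genes tested was −0.02. In 3078 genes (27.5%) the libraries of the groups did not overlap. Changes beyond 1 log2 unit numbered 455 among the rises and 404 among the falls, and changes beyond 3 log2 units 67 and 73. The rises and falls did not sit at the same levels. Among the 3397 genes with a mean below 100 normalized counts, 92 were higher and 167 lower, whereas among the 6292 genes with a mean from 100 to below 1000, 494 were higher and 351 lower. The number of calls depended on single libraries. It was 581 without lymphodepleted library 2, 568 without untreated library 1 and 720 without untreated library 2, and it reached 1710 without untreated library 3.

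**Figure D1:**
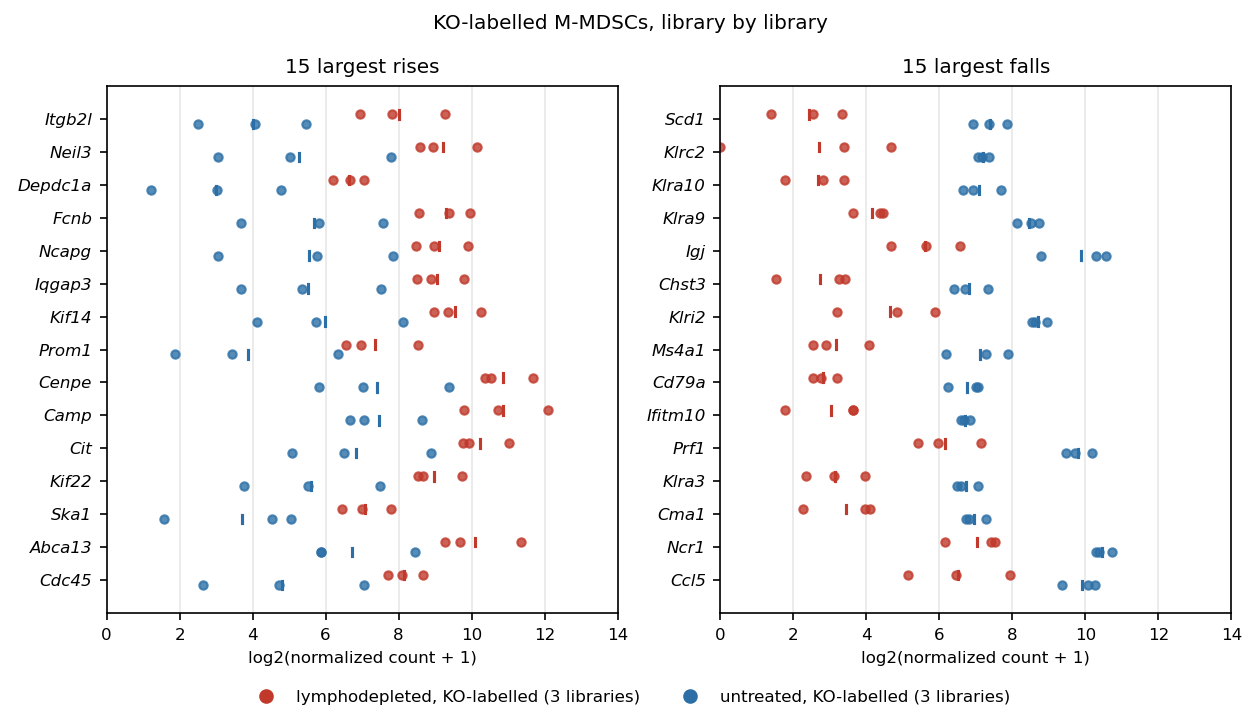
Each point is 1 knockout-labelled M-MDSC library and each tick the mean of its group of 3, with log2(normalized count + 1) on the x axis, for the 15 largest rises (left) and falls (right) that were called, averaged 100 or more normalized counts in whichever group was higher and had no overlap. Lymphodepleted libraries lie right of all untreated ones for the rises, led by Itgb2l at a log2 change of 4.0, and left of them for the falls, led by Scd1 at −4.97.

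Genes of cell division made up most of the largest rises. All 35 members of a list of mitosis and spindle genes passed the filter and were called higher, with a median change of 2.93, and 34 of them had no overlap between the groups. Of 30 genes of DNA replication and nucleotide synthesis, 24 rose and 0 fell (median 1.71), and of 29 replication-dependent histone genes, 16 rose and 0 fell (median 1.57). Histone genes have near-identical copies, so their single members are uncertain. Leaving out lymphodepleted library 2 left 26 of the mitosis, 10 of the replication and 9 of the histone genes called. Leaving out untreated library 1 left 31, 12 and 9 of them, and leaving out untreated library 2 left 32, 14 and 10.

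Cenpe, the motor protein that moves chromosomes to the spindle equator, had 1320, 3272 and 1490 normalized counts in lymphodepleted and 129, 55.5 and 666 in untreated libraries. Lymphodepleted library 2 was the highest, and untreated library 3 lay nearest to the lymphodepleted group without reaching it. The change was 3.45 ± 0.63 (adjusted p 0.00438). Spc25, a subunit of the kinetochore complex that binds microtubules, had 190, 522 and 230 in lymphodepleted and 25.5, 21.8 and 85.7 in untreated libraries and rose by 2.93 ± 0.48 (adjusted p 0.00253). Bub1b, the spindle checkpoint kinase BubR1, had 970, 2176 and 1157 in lymphodepleted and 167, 109 and 560 in untreated libraries (2.63 ± 0.46, adjusted p 0.00343). These genes share the same order of libraries, with lymphodepleted library 2 on top and untreated library 2 at the bottom. Other large rises among division genes were Ncapg of condensin (3.56), the kinesins Kif14 (3.54) and Kif22 (3.39), Iqgap3 (3.54), the citron kinase Cit of cytokinesis (3.41), Cdc45 of the replicative helicase (3.34) and the kinetochore gene Ska1 (3.37). Ncapg, Cdc45 and Ska1 lost the call without lymphodepleted library 2 (adjusted p 0.073, 0.053 and 0.090), and Ska1 also without untreated library 2 (0.062).

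In the replication list, Pola1, the catalytic subunit of the polymerase that starts new strands, had 723, 1331 and 766 normalized counts in lymphodepleted and 182, 139 and 415 in untreated libraries. It rose by 2.04 ± 0.33 (adjusted p 0.00241), and the ligase Lig1, which joins Okazaki fragments, rose by 2.09 ± 0.40 (adjusted p 0.0055). Rrm1, the large subunit of ribonucleotide reductase, rose by 1.88 ± 0.37 (adjusted p 0.00636). Its partner Rrm2 (2.83) and the thymidylate synthase Tyms (2.43) also rose, both named after their values were seen. The replication clamp Pcna (0.43, adjusted p 0.128) was not called.

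Genes of mitosis are known to share a CCAAT box, bound by NF-Y, and a cell cycle homology region (CHR), and replication genes E2F sites, so the RefSeq promoters (GRCm38.p6) of the members were read for these letters. Shown are 100 bases, from 130 to 31 before the start, of 4 mitosis genes and 1 replication gene that rose. They were picked by the smallest p among called members with 1 promoter and the letters in this window. Genes of 1 chromosome were not considered. Mitosis genes needed a CCAAT box and replication genes an E2F site, and Mcm6 was the only replication gene to qualify. Capitals mark CCAAT (or ATTGG on the other strand), TTTGAA for the CHR (or TTCAAA) and TTTNNCGC for the E2F-type site (or GCGNNAAA). In Mcm6 a pair of E2F-type matches on opposite strands overlap and form 1 run of capitals.
Spc25 (chr2:69206244-69206343, minus strand): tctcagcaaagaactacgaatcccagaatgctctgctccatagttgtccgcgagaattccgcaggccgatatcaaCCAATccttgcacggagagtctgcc
Bub1b (chr2:118598081-118598180, plus strand): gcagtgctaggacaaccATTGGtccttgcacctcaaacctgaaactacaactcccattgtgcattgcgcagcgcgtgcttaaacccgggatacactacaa
Cdk1 (chr10:69352943-69353042, minus strand): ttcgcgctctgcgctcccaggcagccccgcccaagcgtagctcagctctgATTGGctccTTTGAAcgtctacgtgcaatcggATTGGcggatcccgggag
Cenpf (chr1:189688117-189688216, minus strand): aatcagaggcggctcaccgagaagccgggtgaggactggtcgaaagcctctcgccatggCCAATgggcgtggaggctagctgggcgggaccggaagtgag
Mcm6 (chr1:128359736-128359835, minus strand): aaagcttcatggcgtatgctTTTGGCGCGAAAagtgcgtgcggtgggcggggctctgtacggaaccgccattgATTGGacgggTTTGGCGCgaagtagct

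Over the 250 bases before the start, CCAAT was read on either strand in 25 of 31 promoters of the mitosis list (80.6%; 29 of its 35 genes matched), against 33.8% of all 32851 promoters in the table. It was read in 62.5% of promoters of the replication list and in 30% of promoters of a natural killer (NK) cell list. TTTGAA was read in 35.5% of the mitosis promoters and in 16% of all promoters. TTTNNCGC was read in 31.2% of the replication promoters, 3.23% of the mitosis promoters and 4.28% of all promoters. These shares are descriptions of letters and were not tested. Cdk1, the kinase that drives entry into mitosis and whose window holds both CCAAT and TTTGAA, had 237, 591 and 445 normalized counts in lymphodepleted and 34.0, 15.2 and 139 in untreated libraries (3.21 ± 0.57, adjusted p 0.0039). Mcm6, a subunit of the replicative helicase, had 687, 1471 and 1335 in lymphodepleted and 310, 267 and 749 in untreated libraries (1.48 ± 0.35, adjusted p 0.0156). The groups overlapped for Mcm6, and it was called in 3 of 6 fits with a library left out, with the largest adjusted p, 0.084, without lymphodepleted library 2.

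Because cyclophosphamide crosslinks DNA, a list of crosslink repair and damage checkpoint genes was read as well. Of 32 members, 19 rose and 0 fell (median 1.32), with 11 called without lymphodepleted library 2, 10 without untreated library 1 and 11 without untreated library 2. Clspn, claspin, which passes the replication stress signal to Chek1, had 674, 1569 and 899 normalized counts in lymphodepleted and 92.1, 64.1 and 390 in untreated libraries (2.88 ± 0.49, adjusted p 0.00322). Chek2, a checkpoint kinase, rose by 1.66 ± 0.29 (adjusted p 0.00366), and Palb2, which links Brca1 to Brca2, by 1.57 ± 0.29 (adjusted p 0.00437). Eme1, a subunit of a structure-specific nuclease, had 104, 123 and 108 in lymphodepleted and 9.80, 7.26 and 40.1 in untreated libraries (2.87 ± 0.53). The damage kinases Atm (−0.17) and Atr (0.20) were not called, and Eme1, Atm and Atr were named after their values were seen. Like the mitosis genes, Clspn, Chek2 and Eme1 were highest in lymphodepleted library 2 and lowest in untreated library 2. Palb2 was highest in lymphodepleted library 2 and lowest in untreated library 1. Whether the rise of this list was separate from that of the division genes was not tested.

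Targets of p53, the transcription factor that responds to DNA damage, did not move one way. Of 21 tested, 2 rose and 2 fell, with a median of −0.02, beside 6.32% and 5.73% of all genes. Ckap2, a spindle protein, had 134, 247 and 223 normalized counts in lymphodepleted and 23.5, 11.2 and 61.9 in untreated libraries and rose by 2.88 ± 0.49 (adjusted p 0.00314). Psrc1, which binds microtubules, rose by 2.28 ± 0.58 (adjusted p 0.0206), a call lost without lymphodepleted library 2 (adjusted p 0.0996). Both rises are thus of genes that also act on the spindle. Trp53inp1, a p53-induced nuclear protein, had 277, 210 and 330 in lymphodepleted and 670, 549 and 592 in untreated libraries and fell by 1.16 ± 0.16 on the log2 scale (adjusted p 0.00082). The cell cycle inhibitor Cdkn1a, named after its values were seen, had 292, 233 and 186 in lymphodepleted and 173, 181 and 112 in untreated libraries. Its libraries did not overlap, yet the change of 0.61 ± 0.21 was not called (adjusted p 0.074). Mdm2, which degrades p53, had a change of 0.13 (adjusted p 0.601). Depending on the library left out, 1 to 3 members were called higher and 1 to 5 lower, with 5 lower without lymphodepleted library 1.

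Some granule genes of neutrophils rose as well. Neutrophils make primary granules first, as promyelocytes, then secondary and tertiary granules. Of 20 genes of secondary and tertiary granules, 7 rose and 0 fell (median 0.30), and 5 had changes below 0. Their summed level overlapped, at 38405 to 72309 normalized counts in lymphodepleted and 41555 to 69458 in untreated libraries. Ltf, lactoferrin, had 1762, 10290 and 4687 normalized counts in lymphodepleted and 347, 312 and 764 in untreated libraries. All lymphodepleted libraries exceeded all untreated ones, with lymphodepleted library 2 the highest, and the change was 3.33 ± 0.63 (adjusted p 0.00505). Camp, the cathelicidin peptide, had 891, 4340 and 1707 in lymphodepleted and 133, 100 and 400 in untreated libraries (3.42 ± 0.63, adjusted p 0.00477). Ngp (3.17), Itgb2l (4.0), Chi3l1 (2.70) and the iron-binding Lcn2 (2.41) also rose. The seventh, Adpgk (2.18), encodes a glucose-phosphorylating enzyme. Chi3l1 and Lcn2 kept the call in 2 of 6 fits with a library left out, with adjusted p up to 0.12 and 0.16, both without lymphodepleted library 2. Abca13, a transporter of the ABC family outside this list, had 614, 2601 and 827 in lymphodepleted and 58.2, 57.5 and 347 in untreated libraries (3.37 ± 0.63).

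Primary granule genes had a higher median (2.47) but fewer calls, with 3 of 13 higher and 0 lower. Mpo, myeloperoxidase, had 3471, 5009 and 9604 normalized counts in lymphodepleted and 946, 129 and 5297 in untreated libraries. Untreated library 3 lay above lymphodepleted libraries 1 and 2, and the change of 2.67 ± 0.95 was not called (adjusted p 0.0876). Elane, neutrophil elastase, had 685, 1175 and 1696 in lymphodepleted and 169, 38.3 and 1003 in untreated libraries (2.56 ± 1.02, adjusted p 0.125). Without untreated library 3 the change was 3.97 for Mpo (adjusted p 0.00217) and 3.76 for Elane (adjusted p 0.0109), and 9 of the 13 genes were called. Fcnb, ficolin B, whose libraries did not overlap, was called in every fit that left out 1 library. Prss57 (3.16 ± 0.94, adjusted p 0.0428), a serine protease, and Serpinb1a (1.38 ± 0.41, adjusted p 0.0436), an inhibitor of elastase, were called although their libraries overlapped. Each of them lost the call without lymphodepleted library 2 (adjusted p 0.16 and 0.20), without lymphodepleted library 3 (0.071 and 0.10), without untreated library 1 (0.19 and 0.17) and without untreated library 2 (0.18 and 0.15), and Prss57 also without lymphodepleted library 1 (0.067). Prss57 was not called by DESeq2 (adjusted p 0.425) or edgeR (0.273) on recovered reads.

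Of 13 genes of mature neutrophils, S100a8 and S100a9, the subunits of calprotectin, rose and 0 fell, beside 6.32% and 5.73% of all genes. S100a9 lost the call without lymphodepleted library 2 (adjusted p 0.069), untreated library 1 (0.051) or untreated library 2 (0.057), which left 1 of the 13 called. The chemokine receptor Cxcr2, named after its values were seen, had 20.9, 38.9 and 23.5 in lymphodepleted and 20.9, 2.64 and 7.48 in untreated libraries (1.66 ± 0.64, adjusted p 0.110). The summed level of 5 neutrophil markers (Cxcr2, Retnlg, Mmp9, Ltf and Camp) was 2715 to 14699 normalized counts in lymphodepleted and 426 to 1184 in untreated libraries, and Ltf and Camp were the 2 that were called. Ly6g was not analysed here. Ltf and Camp are themselves in the list of secondary and tertiary granules and make up most of this sum, so it restates their rise. The part of neutrophils in the other rises was not tested. In bulk RNA, more or fewer cells of a type and more or less RNA per cell cannot be told apart.

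**Figure D2:**
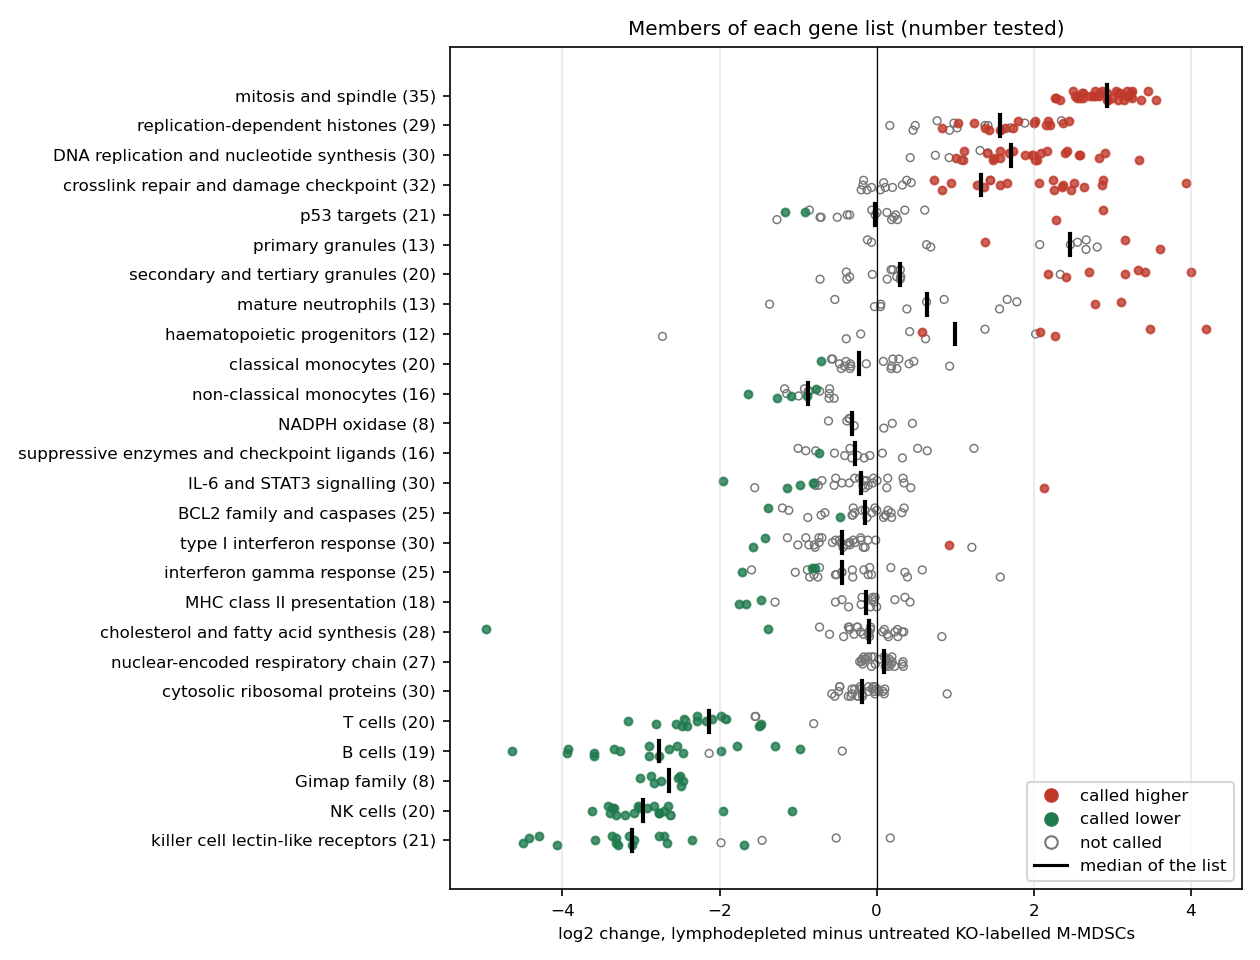
Each point is 1 gene tested, placed by its log2 change between lymphodepleted and untreated knockout-labelled M-MDSCs, in rows by gene list with the number tested in brackets. Filled points were called higher (red) or lower (green), open ones were not called, and bars give the medians, which run from 2.93 for mitosis to −3.12 for killer cell lectin-like receptors.

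Progenitor genes rose in part. Of 12 genes of haematopoietic progenitors, 5 rose and 0 fell. Erg, a transcription factor of stem and progenitor cells, had 35.1, 79.4 and 42.8 normalized counts in lymphodepleted and 0, 0.66 and 11.6 in untreated libraries (4.19 ± 0.86, adjusted p 0.00743). Lmo2, a cofactor of stem cell transcription, rose by 0.58 ± 0.12 (adjusted p 0.00796), with 847, 868 and 707 in lymphodepleted and 499, 587 and 529 in untreated libraries. Both genes were called whichever library was left out. Cd34 (2.08), Myb (2.27) and Prom1 (3.48), which encodes CD133, also rose. Prom1 and Myb were not called by DESeq2 (adjusted p 0.139 and 0.073) or edgeR (0.0673 and 0.0757). Prom1 lost the call without lymphodepleted library 2 (adjusted p 0.178) or 3 (0.059) and without untreated library 1 (0.141) or 2 (0.169), Myb without lymphodepleted library 2 (0.081) and without untreated library 1 (0.079) or 2 (0.057), and Cd34 without untreated library 1 (0.066) or 2 (0.068). Thus 2 of the 12 genes were called without either of those untreated libraries, 3 without lymphodepleted library 2 and 7 without untreated library 3. Kit, the stem cell factor receptor, had 134, 237 and 283 in lymphodepleted and 80.4, 43.6 and 142 in untreated libraries and was not called (1.38 ± 0.46, adjusted p 0.0667). Cebpe, the factor that starts secondary granule genes, had 68.4, 147 and 86.9 in lymphodepleted and 18.3, 13.2 and 42.8 in untreated libraries (2.08 ± 0.64, adjusted p 0.0515). It was short of the threshold here and passed it in DESeq2 (adjusted p 0.00478) and edgeR (adjusted p 0.0413) on recovered reads.

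Monocyte genes were read as a classical and a non-classical list. Classical monocytes carry Ly6C and Ccr2 and leave the marrow, and non-classical ones patrol vessels. Of 20 classical genes, 0 rose and 1 fell (median −0.23), beside 6.32% and 5.73% of all genes. The number lower was 0 without lymphodepleted library 1 or 2 or untreated library 2, and 3 without untreated library 3. Ly6c2 had 487, 592 and 1403 normalized counts in lymphodepleted and 886, 1313 and 1118 in untreated libraries (−0.56 ± 0.44, adjusted p 0.450). Ccr2, the receptor for marrow exit, had 4377, 3366 and 6768 in lymphodepleted and 4147, 5379 and 3746 in untreated libraries (0.09 ± 0.21, adjusted p 0.838). Both genes overlapped between the groups. Csf1r, the receptor for the monocyte growth factor (−0.47, adjusted p 0.195), the integrin chain Itgam (−0.41, adjusted p 0.082) and the factor Irf8 (−0.24, adjusted p 0.318) were not called either.

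All 16 non-classical genes had negative changes (median −0.88), and 5 were called lower. Spn, the sialoglycoprotein CD43, had 2653, 3060 and 3282 normalized counts in lymphodepleted and 6120, 5276 and 4149 in untreated libraries and fell by 0.78 ± 0.17 on the log2 scale (adjusted p 0.00911). Itgal, the alpha chain of LFA-1, had 4720, 2592 and 4179 in lymphodepleted and 11011, 9187 and 4933 in untreated libraries (−1.10 ± 0.28, adjusted p 0.0213). Untreated library 3 was the lowest untreated library for both. Ace, the angiotensin-converting enzyme, named after its values were seen, had 3387, 1171 and 2100 in lymphodepleted and 11469, 6780 and 3271 in untreated libraries (−1.64 ± 0.48, adjusted p 0.0414). The factor Pou2f2 (−0.88) and the receptor Treml4 (−1.27) were also called. The groups overlapped for Ace, Pou2f2 and Treml4. The call of Spn was lost without untreated library 1 (adjusted p 0.056), that of Itgal without lymphodepleted library 2 (0.115), untreated library 1 (0.114) or untreated library 2 (0.0855), and those of Ace, Pou2f2 and Treml4 in 4 of the 6 fits each. The number called depended on the untreated libraries, being 0 without library 1, 1 without library 2 and 10 without library 3. It was 1 without lymphodepleted library 2 and 2 without lymphodepleted library 3. Cx3cr1, the fractalkine receptor (−0.85, adjusted p 0.104), and Nr4a1, the factor that non-classical monocytes need (−0.92, adjusted p 0.080), were not called.

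**Figure D3:**
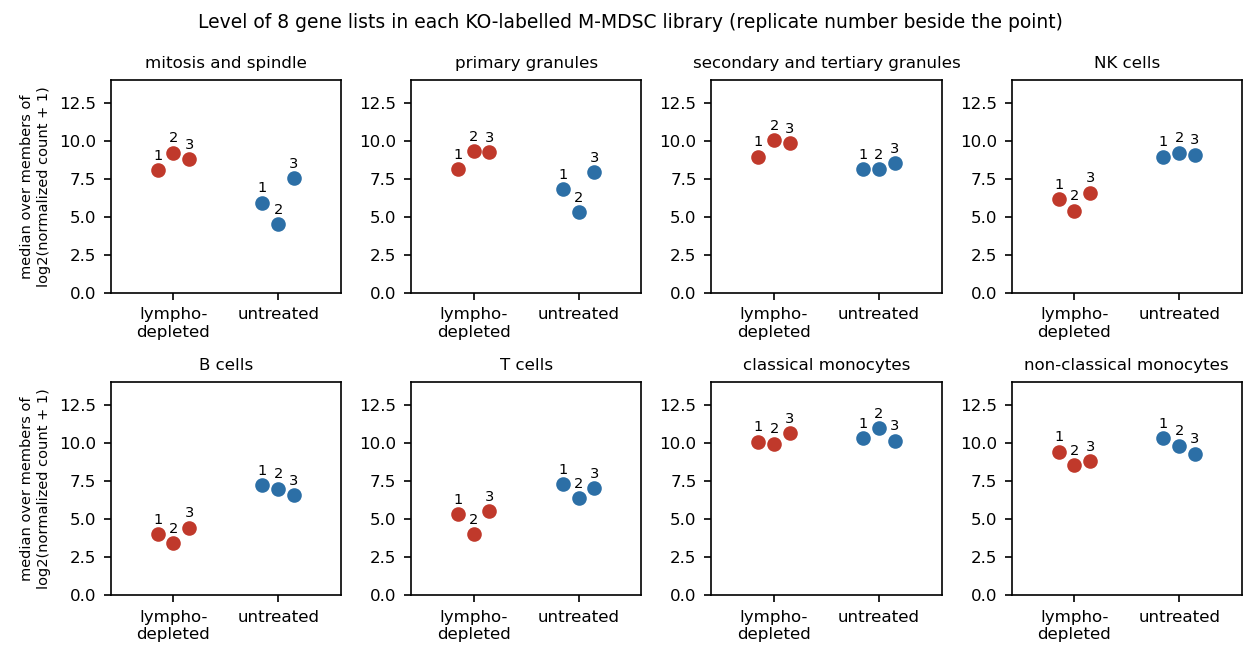
Each point gives, for 1 knockout-labelled M-MDSC library, the median over the members of a list of log2(normalized count + 1), with lymphodepleted left of untreated libraries and the replicate number beside the point. Mitosis genes lay at 8.05 to 9.21 in lymphodepleted and 4.51 to 7.52 in untreated libraries, with untreated library 3 the highest untreated one, while NK cell genes lay at 5.39 to 6.59 in lymphodepleted and 8.96 to 9.22 in untreated libraries.

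Lymphoid transcripts made up most of the largest falls. Over 6 lymphoid lists (B, plasma, T and NK cells, killer cell lectin-like receptors and the Gimap family), 74 of 91 genes fell and 0 rose, with a median of −2.63. Most of these genes are known chiefly from lymphoid cells, though some kept a sizeable level after lymphodepletion. Plasma cell genes had a median log2(normalized count + 1) of 6.42 to 7.42 in lymphodepleted and 8.10 to 8.52 in untreated libraries. The labels give a sort purity above 99%, and whether the reads came from other cells was not tested.

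Of 20 NK cell genes, 19 fell, and 17 to 19 fell whichever library was left out. Ncr1, the activating receptor NKp46, had 171, 70.5 and 183 normalized counts in lymphodepleted and 1248, 1694 and 1321 in untreated libraries. The lowest untreated library lay several-fold above the highest lymphodepleted one, and the change was −3.42 ± 0.38 (adjusted p 0.0002). Prf1, the pore-forming perforin, had 60.8, 41.3 and 140 in lymphodepleted and 838, 1170 and 704 in untreated libraries (−3.63 ± 0.39, adjusted p 0.000181). Gzmb, granzyme B, had 63.6, 41.3 and 94.7 in lymphodepleted and 547, 855 and 577 in untreated libraries (−3.34 ± 0.35, adjusted p 0.000175). Klre1, a receptor of NK cells, had 44.6, 25.1 and 32.0 in lymphodepleted and 268, 401 and 356 in untreated libraries (−3.31 ± 0.26, adjusted p 3.4e-05). The chemokine Ccl5 fell by 3.39 ± 0.71 on the log2 scale (adjusted p 0.00831). Of 21 killer cell lectin-like receptor genes, 17 fell and 0 rose (median −3.12). They include near-identical copies, so their single members are uncertain. Summed over Ncr1, Klrb1c, Eomes and Gzma, NK markers were at 268 to 897 in lymphodepleted and 4208 to 6449 in untreated libraries, so that they were still read after lymphodepletion.

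Of 19 B cell genes, 17 fell and 0 rose (median −2.77), and 16 to 18 fell whichever library was left out. Fcer2a, the low-affinity IgE receptor CD23 of mature B cells, had 2.85, 0.81 and 4.83 normalized counts in lymphodepleted and 92.1, 83.2 and 78.9 in untreated libraries (−4.64 ± 0.44, adjusted p 0.00013). Cd79a, a signalling chain of the B cell receptor, had 5.70, 8.10 and 4.83 in lymphodepleted and 132, 126 and 74.1 in untreated libraries (−3.93 ± 0.51, adjusted p 0.000633). Ms4a1, which encodes CD20, had 4.75, 6.48 and 15.7 in lymphodepleted and 233, 153 and 71.4 in untreated libraries (−3.94 ± 0.65). Counts after lymphodepletion were so low that a difference of a few reads moves these changes. The B cell adaptor Bank1 kept more reads, with 89.3, 79.4 and 61.5 in lymphodepleted and 309, 224 and 262 in untreated libraries (−1.78 ± 0.22, adjusted p 0.000392). Igj, the joining chain of secreted antibodies, had 48.4, 24.3 and 92.9 in lymphodepleted and 1244, 437 and 1507 in untreated libraries (−4.26 ± 0.57, adjusted p 0.000744). Of 8 plasma cell genes, 4 fell and 0 rose, with 1 called without lymphodepleted library 2 and 1 without untreated library 1.

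Of 20 T cell genes, 14 fell and 0 rose (median −2.14), with 8 called without lymphodepleted library 2 and 8 without untreated library 1. Lck, the kinase of T cell receptor signalling, had 121, 51.9 and 161 normalized counts in lymphodepleted and 605, 504 and 590 in untreated libraries (−2.48 ± 0.34, adjusted p 0.00082). Cd247, a chain shared by the T cell receptor and NK receptors, fell by 2.55 ± 0.37 on the log2 scale (adjusted p 0.00105). All 8 members of the Gimap family, GTPases of lymphocyte survival, fell, with changes from −3.02 to −2.46. Gimap6 had 121, 70.5 and 150 in lymphodepleted and 625, 588 and 630 in untreated libraries (−2.49 ± 0.28, adjusted p 0.000201). For Lck and Gimap6 lymphodepleted library 2 was the lowest of the 6 libraries.

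Several falls were of genes that are not in the lymphoid lists. Whether they were separate from the falls of lymphoid genes was not tested. Scd1 (chromosome 19, 44394450 to 44407709), the desaturase that makes oleate, had 4.75, 1.62 and 9.05 normalized counts in lymphodepleted and 232, 162 and 121 in untreated libraries, the largest fall among the genes plotted (−4.97 ± 0.51, adjusted p 0.000149). Of 28 genes of cholesterol and fatty acid synthesis, Scd1 and Acss2, which makes acetyl-CoA from acetate, fell and 0 rose (median −0.10). Acss2 had 111, 96.4 and 88.7 in lymphodepleted and 290, 234 and 257 in untreated libraries (−1.39 ± 0.24, adjusted p 0.00328). Among 24 genes of LXR, PPAR and lipid handling, 3 fell and 0 rose (median −0.22). Beside both lists, 5.73% of all genes fell and 6.32% rose. Abca1, the cholesterol exporter, had 173, 106 and 127 in lymphodepleted and 377, 408 and 385 in untreated libraries (−1.55 ± 0.19, adjusted p 0.000322). Mylip, a ubiquitin ligase, had 375, 322 and 261 in lymphodepleted and 604, 718 and 644 in untreated libraries (−1.04 ± 0.14, adjusted p 0.00068). Abca1 and Mylip are known targets of LXR, as is Scd1. The LXR target Abcg1 was not called (−0.46 ± 0.18, adjusted p 0.117).

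Adamts14, a protease that processes collagen, had 290, 103 and 192 normalized counts in lymphodepleted and 942, 1384 and 1509 in untreated libraries (−2.80 ± 0.35, adjusted p 0.000493). Chst3, which sulphates chondroitin, had 1.90, 9.72 and 8.45 in lymphodepleted and 161, 83.9 and 103 in untreated libraries (−4.09 ± 0.58, adjusted p 0.000994). Cma1, a mast cell chymase, had 3.80, 16.2 and 14.5 in lymphodepleted and 111, 153 and 106 in untreated libraries (−3.50 ± 0.66, adjusted p 0.00512). In the list of eosinophils, basophils and mast cells, 4 of 21 genes passed the filter, and Cma1 was the only one called lower. Hdc, the histamine-forming enzyme, was called higher (1.93 ± 0.51, adjusted p 0.0249), a call lost without lymphodepleted library 2 or untreated libraries 1 or 2 (adjusted p 0.13, 0.12 and 0.10). Ifitm10 had 11.4, 2.43 and 11.5 in lymphodepleted and 101, 114 and 95.2 in untreated libraries (−3.69 ± 0.63).

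Genes of IL-6 and STAT3 signalling had a small median change (−0.20), and 23 of the 30 tested had changes below 0. Of the 30, 1 rose and 4 fell, beside 6.32% and 5.73% of all genes. The number that fell was 2 to 9 depending on the library left out. It was 9 without untreated library 3 and 2 without untreated library 1 or lymphodepleted library 2. Jak1 had 2040, 1787 and 2274 normalized counts in lymphodepleted and 4124, 4440 and 3447 in untreated libraries and fell by 0.98 ± 0.13 on the log2 scale (adjusted p 0.000744). Il27ra, the receptor for a related cytokine, had 50.3, 32.4 and 31.4 in lymphodepleted and 148, 157 and 137 in untreated libraries (−1.96 ± 0.37, adjusted p 0.00496). The groups did not overlap for either gene, and both calls stood whichever library was left out. Socs3, the feedback inhibitor, had 306, 126 and 165 in lymphodepleted and 622, 446 and 246 in untreated libraries (−1.14 ± 0.35, adjusted p 0.0477). It overlapped and lost the call without lymphodepleted library 2 (adjusted p 0.21), lymphodepleted library 3 (0.10), untreated library 1 (0.22) or untreated library 2 (0.14). Stat3 had 1730, 1514 and 1438 in lymphodepleted and 2323, 2444 and 1662 in untreated libraries (−0.44 ± 0.14, adjusted p 0.056). It was short of the threshold here but passed it in DESeq2 (adjusted p 0.0208), edgeR (adjusted p 0.0412) and without untreated library 3 (−0.61, adjusted p 0.00379). The receptor chains Il6ra (−0.14, adjusted p 0.606) and Il6st (0.35, adjusted p 0.0906) were not called. Bcl3, an NF-kB cofactor, fell by 0.81 ± 0.21 and lost the call without lymphodepleted library 2 or untreated libraries 1 or 2 (adjusted p 0.11, 0.056 and 0.12).

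Among 16 genes of suppressive enzymes and checkpoint ligands that passed the filter, 0 rose and 1 fell, beside 6.32% and 5.73% of all genes. Arg1 had 0, 4.05 and 0 normalized counts in lymphodepleted and 1.31, 9.91 and 4.08 in untreated libraries, and Nos2 0, 0 and 0 in lymphodepleted and 0, 3.30 and 0 in untreated libraries. These arginine-consuming enzymes, by which MDSCs are known to restrain T cells, were therefore too low to test. Cd274, the checkpoint ligand PD-L1, had 278, 116 and 167 in lymphodepleted and 350, 209 and 149 in untreated libraries (−0.34 ± 0.31, adjusted p 0.530). Ptgs2, the inducible cyclooxygenase, had 40.8, 30.0 and 35 in lymphodepleted and 32.0, 41.6 and 10.2 in untreated libraries (0.52 ± 0.48, adjusted p 0.535). Of 8 subunits of the NADPH oxidase, 0 were called by limma (2 at an unadjusted p under 0.05, 0 by DESeq2 and 0 by edgeR). Cybb, its catalytic subunit, had 7374, 6896 and 10890 in lymphodepleted and 12767, 12281 and 7224 in untreated libraries (−0.34 ± 0.23, adjusted p 0.366). With 1 library left out, 0 to 4 of the 16 suppressive genes were called lower, with 4 without untreated library 3. The 1 gene that fell was Lgals9, galectin-9 (−0.74 ± 0.21, adjusted p 0.0366), and its call was lost without lymphodepleted library 2 or untreated libraries 1 or 2 (adjusted p 0.17, 0.074 and 0.17).

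Survival genes were read beside all genes, of which 6.32% rose and 5.73% fell. Of 25 genes of the BCL2 family and caspases, 0 rose and 2 fell. Mcl1, the survival factor of myeloid cells, had 5640, 4389 and 4964 normalized counts in lymphodepleted and 6376, 7530 and 4903 in untreated libraries (−0.31 ± 0.16, adjusted p 0.242). Bcl2l1, which encodes BCL-XL, was within the spread (0.00 ± 0.16, adjusted p 0.996), and the death receptor Fas had a change of −0.34 (adjusted p 0.440). Of the 2 that fell, Bcl2 (−1.38 ± 0.22, adjusted p 0.00197) was called whichever library was left out, and with it 1 to 4 genes of the list were called lower, 1 of them without lymphodepleted libraries 2 or 3 or untreated libraries 1 or 2 and 4 without untreated library 3. Among 16 genes of death receptors and their signalling, 1 rose and 2 fell. Fasl, the ligand of Fas on cytotoxic lymphocytes, had 38.0, 14.6 and 31.4 normalized counts in lymphodepleted and 165, 191 and 224 in untreated libraries (−2.84 ± 0.51, adjusted p 0.00412) and was called whichever library was left out. Traf1, a signalling adaptor of these receptors, fell by 1.35 on the log2 scale (adjusted p 0.038), a call lost without lymphodepleted library 2 (adjusted p 0.182) or 3 (0.0715) and without untreated library 1 (0.142) or 2 (0.104). Mlkl, the pore-forming effector of necroptosis, had 303, 472 and 321 in lymphodepleted and 109, 145 and 240 in untreated libraries and rose by 1.19 ± 0.25 (adjusted p 0.00756).

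More trafficking genes fell than rose, where 5.73% of all genes fell and 6.32% rose. Whether these falls were separate from those of the lymphoid lists was not tested. Of 22 chemokine and sphingosine phosphate system genes, 8 fell and 1 rose. Cxcr5, the follicle-homing receptor of lymphocytes, had 0.95, 1.62 and 1.81 normalized counts in lymphodepleted and 68.6, 53.5 and 36.7 in untreated libraries (−4.43 ± 0.56, adjusted p 0.000525). S1pr5, a sphingosine phosphate receptor used by NK cells and patrolling monocytes, had 120, 93.2 and 148 in lymphodepleted and 893, 765 and 498 in untreated libraries (−2.55 ± 0.37, adjusted p 0.0011). Ccr7 (−2.43), a lymph node homing receptor, and Ccl5 fell as well, Ccr7 not without untreated library 1 (adjusted p 0.066). The rise was Cxcr4, which holds cells in the marrow and was named after its values were seen, with 514, 909 and 674 in lymphodepleted and 442, 314 and 365 in untreated libraries (0.88 ± 0.21, adjusted p 0.0145). Cxcr4 was called in 4 of 6 fits with a library left out, with the largest adjusted p, 0.080, without lymphodepleted library 2. Of 26 integrins and adhesion genes, 8 fell and 2 rose. Itga4, the alpha chain of VLA-4, had 8711, 5719 and 7041 in lymphodepleted and 15211, 12994 and 11025 in untreated libraries (−0.88 ± 0.19, adjusted p 0.00873), with the call lost at the margin without lymphodepleted library 2 (adjusted p 0.0503) or untreated library 1 (0.0524). Cd63, a tetraspanin of granule membranes, had 162, 445 and 182 in lymphodepleted and 18.3, 12.5 and 109 in untreated libraries (2.95 ± 0.63, adjusted p 0.00892), with the call lost without lymphodepleted library 2 (0.0513) or untreated library 1 (0.0521). With 1 library left out, 4 to 10 of the trafficking genes fell, 4 without untreated library 1, and 1 to 10 of the adhesion genes, with 1 without lymphodepleted library 2, 2 without untreated library 1 and 3 without untreated library 2.

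The receptors Il18r1 and Il18rap, which form the receptor for interleukin-18, fell together. Il18rap had 292, 305 and 274 normalized counts in lymphodepleted and 707, 900 and 864 in untreated libraries (−1.49 ± 0.17, adjusted p 0.000265). Il18r1 had 195, 131 and 197 in lymphodepleted and 704, 684 and 757 in untreated libraries (−2.05 ± 0.20, adjusted p 0.00013). The other 14 tested genes of the interleukin-1 family were not called. The shear-responsive factor Klf2 had 1424, 911 and 958 in lymphodepleted and 3007, 2578 and 2037 in untreated libraries (−1.22 ± 0.19, adjusted p 0.00179). The interleukin-7 receptor Il7r, the only one of 21 growth factor and cytokine receptors with a change beyond 2 log2 units, had 28.5, 13.8 and 32.0 in lymphodepleted and 204, 104 and 101 in untreated libraries (−2.42 ± 0.47, adjusted p 0.00571).

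Interferon-induced genes were called about as often as all genes, of which 12% were called. Of 30 type I interferon response genes, 1 rose and 2 fell (median −0.44), and 28 had changes below 0. Of 25 interferon gamma response genes, 0 rose and 3 fell (median −0.45), and 20 had changes below 0. Xaf1, a proapoptotic interferon-induced gene, had 90.2, 34.8 and 85.1 normalized counts in lymphodepleted and 197, 197 and 187 in untreated libraries (−1.57 ± 0.29, adjusted p 0.00496). Gbp4, a guanylate-binding protein, had 198, 76.2 and 119 in lymphodepleted and 331, 400 and 480 in untreated libraries (−1.71 ± 0.34, adjusted p 0.00642). Both calls stood whichever library was left out, and the lists had 7 type I genes lower without lymphodepleted library 1 and 8 interferon gamma genes lower without untreated library 3, and 1 lower each without lymphodepleted library 2. In the list of major histocompatibility class II presentation, 3 of 18 genes fell and 0 rose. The 3 were H2-Ob (−1.66), known chiefly from B cells, H2-DMb2 (−1.47) and H2-Eb2 (−1.75). H2-Eb2 lost the call without lymphodepleted library 2 (adjusted p 0.0742) or 3 (0.0501) and without untreated library 1 (0.0737) or 2 (0.084). The invariant chain Cd74, named after its values were seen, had 6227, 2725 and 6109 in lymphodepleted and 5928, 6653 and 2624 in untreated libraries, with a change of 0.00 ± 0.38.

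Housekeeping lists were near the median of all genes. Of 27 nuclear-encoded respiratory chain genes, 0 were called by limma (median 0.09; 3 at an unadjusted p under 0.05, 0 by DESeq2 and 0 by edgeR). Of 30 cytosolic ribosomal protein genes, 0 were called by limma (median −0.18; 2 at an unadjusted p under 0.05, 1 by DESeq2 and 0 by edgeR). Among 24 genes of glycolysis and the pentose phosphate pathway, 3 rose and 0 fell (median 0.11), beside 6.32% and 5.73% of all genes. Hk3, the hexokinase of myeloid cells, had 1632, 2521 and 1441 normalized counts in lymphodepleted and 590, 685 and 1118 in untreated libraries (1.24 ± 0.23, adjusted p 0.00503). Tpi1 (0.56) and Pkm (0.49) were the others, and without lymphodepleted library 2 or 3 or untreated library 1 or 2 only 1 of the 3 calls was left each time. In the leukotriene and prostaglandin pathway, Lta4h, which makes leukotriene B4, had 1256, 2729 and 1797 in lymphodepleted and 758, 693 and 1106 in untreated libraries (1.13 ± 0.28, adjusted p 0.0179), lost without lymphodepleted library 2 or untreated libraries 1 or 2 (adjusted p 0.095, 0.081 and 0.078).

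The response was then set beside that of WT-labelled M-MDSCs, which share no library with it. In WT-labelled cells 2089 of the same 11213 genes were called (18.6%), 1075 higher (9.59%) and 1014 lower (9.04%). The difference between the responses was tested as an interaction, which called 1 gene (0.00892%) in limma, with 1373 genes at an unadjusted p under 0.05, 69 genes called by DESeq2 and 2 by edgeR. The gene was Nedd4, a ubiquitin ligase (chromosome 9, 72662331 to 72749851). It had 257, 442 and 336 normalized counts in lymphodepleted and 365, 356 and 464 in untreated knockout-labelled M-MDSCs. In WT-labelled M-MDSCs it had 443, 364 and 429 in lymphodepleted and 118, 84.9 and 116 in untreated libraries. The knockout-labelled libraries overlapped, the WT-labelled ones did not, and the difference of responses was −2.17 ± 0.29 (adjusted p 0.0314). When single libraries were left out, Nedd4 was no longer called in 10 of 12 fits, all but those without lymphodepleted knockout-labelled library 2 (adjusted p 0.008) and lymphodepleted WT-labelled library 2 (0.0231), with the largest adjusted p, 0.151, without lymphodepleted WT-labelled library 3.

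Lists of dividing cells and granules had smaller median changes in knockout-labelled than in WT-labelled M-MDSCs, with 0 of the 77 mitosis, histone and primary granule genes called in the interaction by limma (41 at an unadjusted p under 0.05, 9 by DESeq2 and 0 by edgeR). The median was 2.93 in knockout-labelled and 4.55 in WT-labelled cells for mitosis, and 2.47 and 4.86 for primary granules. All 35 mitosis, all 29 histone and all 13 primary granule genes had the smaller change in knockout-labelled cells, and the smallest adjusted p of the interaction among them was 0.264. Mki67, the proliferation antigen, had 5911, 13686 and 11275 normalized counts in lymphodepleted and 1359, 396 and 4357 in untreated knockout-labelled cells, against 11444, 8177 and 14591 in lymphodepleted and 469, 455 and 479 in untreated WT-labelled cells. Mpo, given above for knockout-labelled cells, had 10398, 2580 and 4296 in lymphodepleted and 21.2, 48.3 and 49.1 in untreated WT-labelled cells. The lymphodepleted groups overlapped for both genes, and the untreated knockout-labelled libraries were spread widely where the untreated WT-labelled ones were close together. The interaction for Mpo was −4.33 ± 1.35 (adjusted p 0.326).

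Medians of the lymphoid lists were alike in direction, −2.97 in knockout-labelled and −2.66 in WT-labelled cells for NK genes and −2.77 and −2.26 for B cell genes. Levels before treatment were not the same. Ncr1 had 1248, 1694 and 1321 in untreated knockout-labelled and 351, 378 and 327 in untreated WT-labelled M-MDSCs. The gene next in the interaction list, Nkg7, a granule membrane protein of cytotoxic cells chosen after its values were seen, had 110, 143 and 144 in lymphodepleted and 458, 580 and 506 in untreated knockout-labelled cells, against 131, 81.2 and 98.3 in lymphodepleted and 110, 102 and 114 in untreated WT-labelled cells. Its difference of responses was −1.86 ± 0.27 and not called (adjusted p 0.053). Scd1 had 12.8, 5.42 and 21.6 in lymphodepleted and 104, 74.9 and 87.8 in untreated WT-labelled cells, a change of −2.82 ± 0.51, and the interaction was not called (−2.15 ± 0.72, adjusted p 0.335).

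**Figure D4:**
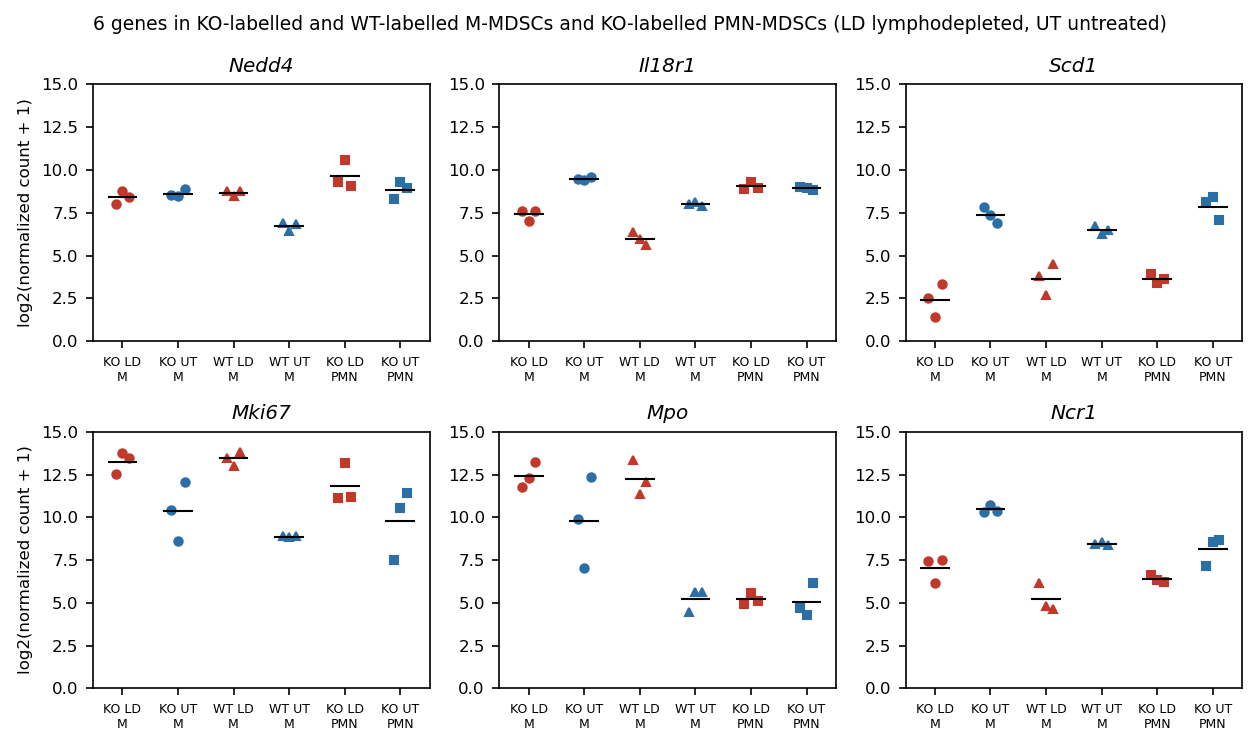
Each point is 1 library and each bar the mean of 3, with log2(normalized count + 1) on the y axis, for 6 genes in knockout-labelled (KO) and WT-labelled M-MDSCs and knockout-labelled PMN-MDSCs, lymphodepleted (LD, red) left of untreated (UT, blue). Nedd4 was lower in untreated WT-labelled M-MDSCs (84.9 to 118 normalized counts) than in every other group shown, and Il18r1 fell in both M-MDSC groups while its PMN-MDSC libraries overlapped at 455 to 617.

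PMN-MDSCs of the same genotype label gave 309 calls (2.76%), 36 higher (0.321%) and 273 lower (2.43%). The interaction of cell type and treatment called 1 gene (0.00892%) in limma, with 887 at an unadjusted p under 0.05, 130 called by DESeq2 and 1 by edgeR. The gene was Il18r1 (chromosome 1, 40465552 to 40500854). In PMN-MDSCs it had 471, 617 and 497 normalized counts in lymphodepleted and 514, 498 and 455 in untreated libraries, which overlap, and the difference between the M-MDSC and the PMN-MDSC response was −2.16 ± 0.27 (adjusted p 0.0158). The call was lost without untreated M-MDSC library 1 (adjusted p 0.0936), 2 (0.0763) or 3 (0.057) and without untreated PMN-MDSC library 2 (0.0704) or 3 (0.0795). Scd1 had 14.3, 9.34 and 11.4 in lymphodepleted and 277, 336 and 133 in untreated PMN-MDSCs (−4.22 ± 0.53), a fall past the threshold in both cell types. B cell genes had a median of −2.77 in M-MDSCs, with 17 of 19 called lower, and of −3.78 in PMN-MDSCs, with 18 of 19. NK cell genes went the other way, at −2.97 (19 of 20) in M-MDSCs and −1.60 (6) in PMN-MDSCs. Killer cell lectin-like receptors had −3.12 (17 of 21) and −0.78 (3), and the Gimap family −2.64 (8 of 8) and −1.92 (3). T cell genes had −2.14 (14 of 20) and −2.09 (5), and plasma cell genes −1.12 (4 of 8) and −1.50 (1). No list was tested as a set. The mitosis genes had medians of 2.93 and 1.86, with 35 called higher in M-MDSCs and 0 in PMN-MDSCs by limma (20 at an unadjusted p under 0.05). In the interaction 0 of them were called by limma (2 at an unadjusted p under 0.05, 1 by DESeq2 and 0 by edgeR). Of the class II presentation genes, 3 of 18 fell in M-MDSCs and 10 of 18 in PMN-MDSCs. Cd74 changed by 0.00 ± 0.38 in M-MDSCs and −2.19 ± 0.47 in PMN-MDSCs, and its interaction was not called (2.19 ± 0.66, adjusted p 0.390).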

How the data were processed

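Per the labels, RNA of sorted splenic MDSCs was sequenced in 24 libraries, 6 of them the knockout-labelled M-MDSCs described here. The authors deposited a table of normalized read counts per gene (a signal, gene counts divided by a size factor per library). Reads were processed with STAR 2.5.3a, HTSeq 0.6.1, DESeq2 and mouse build mm10, per the submitters' processing notes. For the annotation, strand setting, read filters and DESeq2 version, the sources used here give no value. The deposited values were whole multiples of 1 read in each library (100% of values, within 0.001 reads), so reads were recovered and depth is known. On the recovered reads edgeR called 1292 genes and DESeq2 1778.

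Genes with at least 10 normalized counts in at least 3 of the 6 libraries were kept. The log2(normalized count + 1) was fitted with limma 3.58.1 (R 4.3.3, trended variance) on the 12 M-MDSC libraries for the lymphodepletion and label comparisons, or the 12 knockout-labelled libraries for those with PMN-MDSCs. P-values were adjusted by the Benjamini-Hochberg method over all genes, with a threshold of 0.05. The fit was also run on simulated data with the same setting for the spread in all genes and libraries. That run therefore does not cover groups of unequal spread, such as the untreated knockout-labelled and WT-labelled libraries. Alternatives were edgeR 4.0.16, DESeq2 1.42.0, other pseudocounts (0.5 and 5), no filter, quantile normalization, array weights, other sets of libraries, a replicate block and leaving out each library.

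The members and gene lists were chosen with earlier results of these data known. Genes named are the 15 largest rises and the 15 largest falls that were called, averaged 100 or more normalized counts in whichever group was higher and had no overlap; up to 3 called members of each list with the smallest adjusted p; up to 5 genes called each way in an interaction; and a fixed set of key genes such as Il6, Stat3, Mki67, Mpo and Kit. Named after their values were seen were Rrm2, Tyms, Pcna, Eme1, Atm, Atr, Cdkn1a, Mdm2, Ngp, Chi3l1, Lcn2, Adpgk, Cxcr2, Ace, Treml4, Cx3cr1, Nr4a1, Abcg1, Cxcr4, Cd74 and Nkg7, and Mcm6, Cdk1 and Cenpf were chosen for their promoter windows. Symbols were matched to RefSeq (21692 by symbol, 1624 by synonym, 163 unmatched of 23479). Ly6g and 4 other listed symbols were not analysed here. A few genes counted in the lists are not reported here by name.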

Additional observations from a re-analysis of the deposited data

Results flagged for a closer look

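The response of Nedd4 differed between the genotype labels by an interaction test. Its change was −0.22 ± 0.20 in knockout-labelled and 1.96 ± 0.20 in WT-labelled M-MDSCs, a difference of −2.17 (limma, adjusted p 0.0314), with overlapping lymphodepleted and untreated libraries in knockout-labelled cells.

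The response of Il18r1 differed between the cell types of knockout-labelled mice by an interaction test. Its change was −2.05 ± 0.20 in M-MDSCs and 0.10 ± 0.19 in PMN-MDSCs, a difference of −2.16 (limma, adjusted p 0.0158). In WT-labelled M-MDSCs it changed by −2.02 ± 0.20. What lies behind either difference was not tested.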

How the results depend on the processing

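The 1351 calls (709 higher, 642 lower) became 529 (284 higher, 245 lower) with all 24 libraries in 1 fit and 754 (330 higher, 424 lower) with only the 6 libraries. With 1 library left out they ran from 568 to 1710 (256 to 857 higher, 293 to 853 lower). Of these calls 519 were shared with the fit of 24 libraries, 721 with the fit of 6, 1236 with edgeR and 1334 with DESeq2. Of 135 named called genes, 81 were called in each fit that left out 1 library, and 0 changed direction under any alternative run. Of the same 135, 54 lost the call with all 24 libraries in 1 fit and 36 with only the 6 libraries. The median change of all genes was −0.0463 to −0.00772 over the settings.

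The label interaction (1 gene, lower) gave 69 genes in DESeq2 (21 higher, 48 lower), 2 lower with edgeR, with array weights and with a pseudocount of 5, and 0 with 24 libraries and with quantile normalization. With 1 library left out it gave 0 to 7, all lower. The cell type interaction (1 gene, lower) gave 130 in DESeq2 (98 higher, 32 lower), 13 with 24 libraries (5 higher, 8 lower), 19 with array weights (11 higher, 8 lower) and 13 with quantile normalization (1 higher, 12 lower). With 1 library left out it gave 0 to 9 (0 to 3 higher, 0 to 6 lower). Nedd4 was not called with 24 libraries (adjusted p 0.817) or quantile normalization (0.055).

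Replicate numbers were not taken to pair the libraries. Same-numbered lymphodepleted and untreated M-MDSC libraries correlated at −0.262 to 0.0914, and 0 of 3 lymphodepleted ones correlated best with their own number. Lymphodepleted M-MDSC and PMN-MDSC libraries of the same number correlated at 0.0638 to 0.3, and 3 of 3 correlated best with their own number, while untreated ones correlated at −0.104 to 0.037, with 0 of 3. A fit with the replicate block gave 1209 calls (640 higher, 569 lower), 0 genes in the label interaction and 2 in the cell type interaction (0 higher, 2 lower).

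Uncalled genes that changed sign were Bcl2l1 (−0.015 in edgeR, −0.038 with quantile normalization, −0.093 to 0.063 with 1 library left out, negative without lymphodepleted library 2 at −0.054 and untreated library 1), Ccr2 (−0.19 to 0.32, negative without lymphodepleted library 3 and at −0.026 without untreated library 3), Eng (0.17 without lymphodepleted library 2, 0.081 without untreated library 1; lowest −0.19), Il6 (−0.55 to 0.16, positive without lymphodepleted library 2), Itgb3 (−0.33 to 0.015, positive without lymphodepleted library 1), Ptgs2 (−0.059 to 0.90, negative without untreated library 3) and Atp5b (−0.0021 to 0.22, negative without lymphodepleted library 3). The causes were not tested. Counts near 0 limit the precision of the largest falls.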
